A study of Mus musculus with 4 samples.

Results

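Chromatin accessibility of the mouse milk protein genes was examined in fetal and adult mammary epithelium. The set held 7 of the 21887 protein-coding genes that were counted: the 5 casein genes Csn1s1, Csn2, Csn1s2a, Csn1s2b and Csn3, the whey acidic protein gene Wap, and the alpha-lactalbumin gene Lalba. Members were taken because they encode the major proteins of mouse milk; the rule used no measured value, though earlier results of these data were known. Single-nucleus ATAC-seq, in which the Tn5 transposase cuts accessible DNA and barcodes trace every read to its nucleus, had been run on mammary epithelium sorted as EpCAM+ and Lin-. All mice were wild type and of the outbred CD1 strain. The fetal group was at embryonic day 18 and the adult group at 8 weeks, with 2 biological replicates each, and no treatment was named for either. How many animals went into each library, and whether the adults had been pregnant, was not given in the sources used here.

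Caseins are secreted phosphoproteins that carry calcium in micelles, and kappa-casein, the product of Csn3, coats and stabilises the micelle. Wap is a whey protein, and alpha-lactalbumin is the subunit that turns the galactosyltransferase B4galt1 into lactose synthase. In pregnancy these genes are switched on in secretory cells that arise from luminal progenitors. Prolactin acts there through its receptor Prlr, the kinase Jak2 and the transcription factors Stat5a and Stat5b, together with Elf5 and nuclear factor I proteins.

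The proximal promoters are shown because STAT5 acts there on several of these genes in lactation. RefSeq promoter sequences (GRCm38.p6) were at hand for 5 of the 7 genes, and Csn1s2b and Csn3 had no entry. On both strands of the 250 bases before each listed start, 4 motifs were searched: TTCNNNGAA for STAT5, TTGGCA for a nuclear factor I half-site, GGAAGT for ETS factors such as Elf5, and TATAAA. Each promoter shown held 1 match, so no matches overlapped. Capitals mark the matches, and each sequence runs 5′ to 3′ on the strand of its gene.
Csn1s1 (plus strand, chr5:87665958-87666207, STAT5 match in capitals): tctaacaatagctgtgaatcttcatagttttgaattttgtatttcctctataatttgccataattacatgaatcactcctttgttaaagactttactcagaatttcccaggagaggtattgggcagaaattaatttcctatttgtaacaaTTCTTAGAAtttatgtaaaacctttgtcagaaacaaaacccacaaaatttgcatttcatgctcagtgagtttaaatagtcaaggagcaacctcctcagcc
Csn2 (minus strand, chr5:87699430-87699675, STAT5 match in capitals): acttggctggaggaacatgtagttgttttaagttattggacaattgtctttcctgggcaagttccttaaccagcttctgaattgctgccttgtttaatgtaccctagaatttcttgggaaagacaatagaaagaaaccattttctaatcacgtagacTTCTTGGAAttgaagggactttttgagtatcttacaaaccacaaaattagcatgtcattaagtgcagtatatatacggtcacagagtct
Wap (minus strand, chr11:6638655-6638899, ETS match in capitals): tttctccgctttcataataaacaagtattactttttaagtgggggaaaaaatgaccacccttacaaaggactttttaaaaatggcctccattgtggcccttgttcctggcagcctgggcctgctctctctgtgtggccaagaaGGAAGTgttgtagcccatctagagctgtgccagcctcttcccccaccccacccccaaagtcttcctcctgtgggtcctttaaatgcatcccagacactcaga
Lalba (minus strand, chr15:98482786-98482815, nuclear factor I half-site in capitals): agggtttctattTTGGCAtaagcatctctt

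The STAT5 match lay 100 to 92 bases before the start in Csn1s1 and 93 to 85 bases before it in Csn2. Of 32851 promoters of the same length, 7.02% held that motif. The ETS match of Wap lay 107 to 102 bases before the start, and 19.7% of promoters held one. The half-site of Lalba lay 120 to 115 bases before the start, and 12.3% held one. TATAAA was in none of the 5, against 12.4% of all promoters, and Csn1s2a held no match at all. A match is only a run of letters, and no binding was measured here. The Lalba window lies inside a longer RefSeq gene record, so only 30 bases of it are shown. The last 4 bases of the Csn2 window and the last 5 of the Wap window lie in the gene record and are also left out. Match positions count from the listed start, not from the end of the printed sequence.

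These promoters received few reads, with Lalba as the exception. In the 300 bases from 250 before to 50 after the start, Csn2 held 0 and 1 reads in fetal replicates 1 and 2 and 2 and 0 in adult replicates 1 and 2. The same window of Csn1s1 held 0, 2, 5 and 2 reads in that order, that of Csn1s2a 0, 2, 1 and 0, and that of Wap 2, 0, 0 and 5. The Lalba window held 10, 34, 21 and 14 reads. Medians over all 32851 windows were 5, 14, 9 and 14 reads. Lalba thus lay at or above the typical window in all 4 libraries, while the STAT5-matched windows of Csn1s1 and Csn2 were below it in all 4.

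The libraries held 882 and 1695 fetal and 2465 and 2804 adult nuclei, with 6028168, 15801908, 13588107 and 19304830 reads. Levels below are reads over the gene and 2000 bases on either side, in RPKM, the reads-per-kb-per-million unit, scaled to that span and to the reads of the listed nuclei. Values of single regions are in RPM, the same without the length. The spans ran from 6.54 kb for Lalba to 20.4 kb for Csn1s1. Medians over all genes were 0.647 to 0.675 per library. As a reference for closed chromatin, chosen after the values were seen, the 1106 olfactory receptor genes had medians of 0.0667, 0.0767, 0.0564 and 0.105 in fetal 1, fetal 2, adult 1 and adult 2. Adult replicate 2 thus had the highest level over genes that should be silent. These receptors are a family of similar copies, on which reads can be lost in alignment.

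The authors' 14 classes were used by number and checked against fixed markers. Raised markers were all 7 basal ones in adult classes 1 and 8, all 7 mature luminal ones in adult class 2 and 5 of 7 in adult class 11, which also had 2 of 4 stromal ones. Of 5 luminal progenitor markers, which include Elf5, 3 were raised in adult class 3, 4 in adult class 7 and 3 in fetal class 9. Of 3 general luminal markers, Krt8, Krt18 and Krt19, all were raised in adult classes 2, 3, 7, 10 and 11. Fetal class 9 had 2 of these 3 raised and fetal class 5 had 1. The basal marker Krt14 was also raised in fetal classes 5 and 9. Fetal class 4 had 4 of 7 basal markers raised, together with 2 of 3 epidermal ones, and class 6 had all 4 stromal markers, both adipocyte, 2 of 3 immune and 1 of 2 endothelial markers raised. Fetal class 5 had 2 of 5 progenitor markers and fetal class 12 had 3 of 7 basal, 2 of 4 stromal and both adipocyte markers raised, and both classes are left without a name. Classes 10, 13 and 14 are also unnamed: adult class 10 had 3 of 5 progenitor and 4 of 7 mature luminal markers raised, and adult class 14 had 5 of 7 basal and 5 of 7 mature luminal ones.

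Csn3 was the most accessible of the 7 genes at both stages. Fetal libraries had 177 and 655 reads over its span and adult libraries 130 and 242, levels of 2.68 and 3.78 against 0.872 and 1.14. Every fetal value was above every adult value, and the means were 3.23 ± 0.779 and 1.01 ± 0.191 (SD, n = 2). The fetal mean was above that of 91.3% of genes and the adult mean above that of 62.3%. A read of Csn3 was found in 7.82% and 13.3% of fetal and 2.27% and 3.64% of adult nuclei, at median depths of 5535.5 and 7488 reads per fetal nucleus and 4420 and 5457.5 reads per adult nucleus.

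The other caseins were below the level of a typical gene. Csn1s2b, 1 of the 2 alpha-S2-casein genes, had levels of 0.351, 0.480, 0.424 and 0.339 in fetal 1, fetal 2, adult 1 and adult 2. Csn1s1, which encodes alpha-S1-casein, had 0.179, 0.180, 0.257 and 0.191. Both were above the receptor reference in all 4 libraries, and neither was near the gene median. Csn1s2a, the other alpha-S2-casein gene, had 12, 37, 39 and 39 reads and levels of 0.108, 0.128, 0.156 and 0.110. Csn2, the beta-casein gene, had only 2, 13, 15 and 25 reads and levels of 0.0307, 0.0761, 0.102 and 0.120. Csn2 was thus no higher than the receptor median in either fetal library, and in adult replicate 2 both genes were close to the reference of 0.105.

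The whey protein genes were also below Csn3. Wap held 12, 34, 41 and 74 reads, levels of 0.278, 0.300, 0.421 and 0.534, and both adult values were above both fetal values. In both fetal libraries and in adult replicate 1 it was below Csn1s2b. Lalba held 18, 84, 50 and 56 reads, levels of 0.457, 0.813, 0.563 and 0.444, and the stages overlapped. In the adult order of means, Csn3 was followed by Lalba at 0.503 ± 0.0843, Wap at 0.478 ± 0.0804, Csn1s2b at 0.382 ± 0.0599, Csn1s1 at 0.224 ± 0.0465, Csn1s2a at 0.133 ± 0.0328 and Csn2 at 0.111 ± 0.0125 (SD, n = 2). Lalba overlapped with Wap, Wap with Csn1s2b, and Csn1s2a with Csn2 over the adult libraries.

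**Figure D1:**
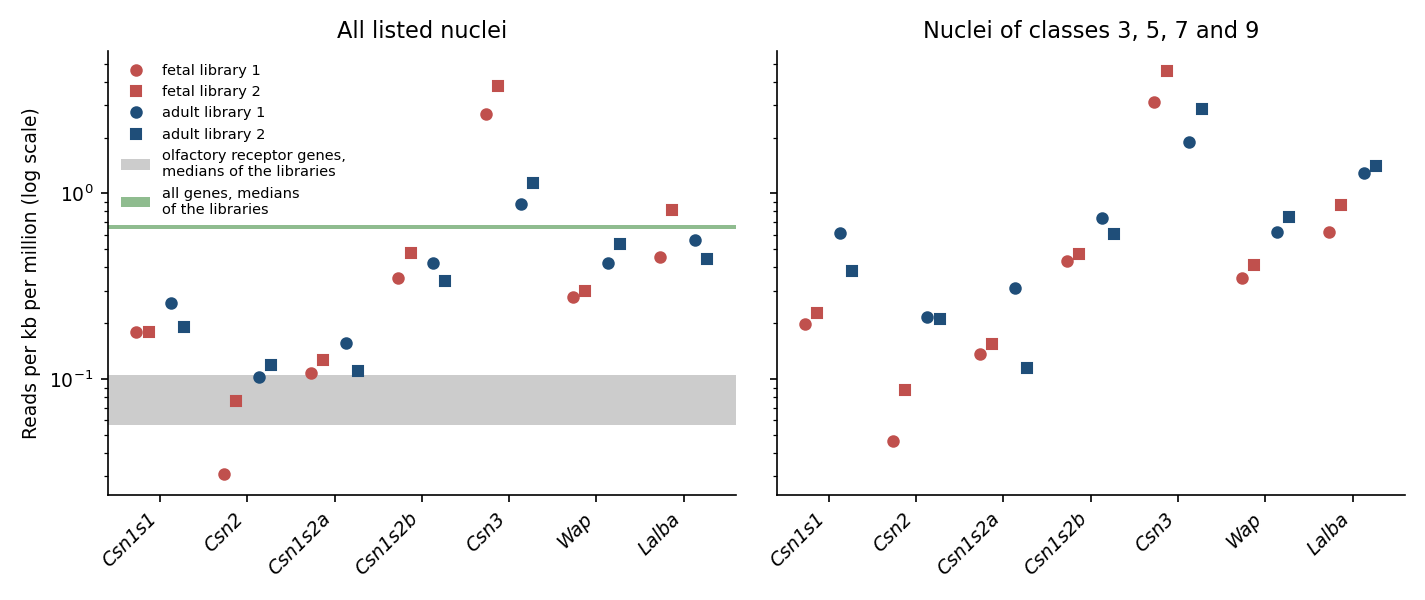
Levels of the 7 genes in each library, in RPKM on a log axis, over all listed nuclei (left) and over nuclei of classes 3, 5, 7 and 9 (right). Circles are replicate 1 and squares replicate 2. On the left, bands give the range of library medians of all genes (green) and of olfactory receptor genes (grey). Csn3 stands above the other genes and is higher in both fetal libraries, while Csn2 lies at or near the grey band.

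Between the stages, Csn3 alone of the 7 passed the test. It was higher in fetal nuclei by 1.69 on the log2 scale (SE 0.21, adjusted p = 0.000116, edgeR quasi-likelihood test on the 4 library sums, Benjamini-Hochberg over all genes). Among all 18808 genes tested, 22.2% were called, so 1 of 7 is near the background. The fold change of Csn3 stayed between 0.99 and 1.94 over 14 alternative settings, and it was called under each. It was smallest over the gene body alone, without the added 2000 bases on each side (0.99, adjusted p = 0.0402, edgeR).

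The other 6 genes were not called. Their log2 fold changes, fetal over adult, were -0.30 (SE 0.37) for Csn1s1, -0.88 (SE 0.72) for Csn2, -0.13 (SE 0.49) for Csn1s2a, 0.17 (SE 0.27) for Csn1s2b, -0.72 (SE 0.45) for Wap and 0.41 (SE 0.41) for Lalba. Adjusted p-values from edgeR ran from 0.283 for Wap to 0.882 for Csn1s2a. With 55 reads of Csn2 in all, even a difference of several fold may not be detectable at this depth. A library sum also cannot tell apart a change within nuclei from a different mix of classes. The later comparison over classes 3, 5, 7 and 9 narrows the mix but cannot separate them either. Fetal and adult nuclei there lie almost wholly in different classes.

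By class, Csn3, Lalba and Csn1s1 were uneven, and adult levels were highest in classes 3 and 7. In adult nuclei, Csn3 stood at 2.95 in class 3 and 1.95 in class 7, with exact Poisson 95% intervals of 2.47 to 3.49 and 1.62 to 2.33. It stood at 0.291 in class 2, 0.402 in class 11, 0.442 in class 1 and 0.703 in class 8. Unnamed class 10, of 143 adult nuclei, was between these at 1.20 (0.720 to 1.87), from 19 reads, with Lalba at 0.634 from 6 reads and Csn1s1 at 0.0678 from 2. The adult libraries kept this order: classes 3 and 7 together had 1.86 and 2.84 in replicates 1 and 2, and classes 2 and 11 together had 0.190 and 0.423. Since the classes were made from these reads, they are described without a test. The intervals cover counting error only, and each fragment entered the files as 2 reads, 1 per end, so they are too narrow.

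Fetal nuclei had reads of Csn3 across most classes. The level was 5.30 (4.63 to 6.03) in class 5, 3.68 (3.32 to 4.06) in class 9, 3.57 (2.93 to 4.30) in class 12 and 2.32 (1.90 to 2.82) in the basal-like class 4. Class 4 was uneven, at 0.938 in fetal replicate 1 and 2.76 in fetal replicate 2, whereas adult basal-like classes 1 and 8 together had 0.564 and 0.570 in the adult libraries. Stromal-like class 6 held no Csn3 read in 56 fetal nuclei and 2 reads in 157 adult nuclei. After every nucleus was thinned to 2000 reads, 6.88% of class 5 nuclei and 4.58% of class 3 nuclei still held a Csn3 read, against 0.329% of class 2 (14.3%, 8.66% and 0.922% before thinning).

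Lalba was open in the same adult classes and nearly without reads in the mature luminal-like ones. Its level was 1.26 in class 3 and 1.40 in class 7, and classes 3 and 7 together had 1.30 and 1.37 in adult replicates 1 and 2. Class 2 held no Lalba read in 1519 nuclei, with 0 in each adult library. Pooled over both libraries and for counting error only, this allows up to 0.197% of barcodes with a read. Class 11 held 2 reads in 557 nuclei. In the basal-like class 8 all 6 reads came from adult replicate 1. Fetal Lalba was at 1.25 in class 5 (0.547 and 1.53 in replicates 1 and 2), 0.981 in class 12, 0.613 in class 9 and 0.450 in class 4.

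Csn1s1 and Csn1s2b followed at lower levels. Csn1s1 was at 0.664 in adult class 3 and 0.379 in class 7, against 0.0941 in class 2, 0.108 in class 11 and no read in the 619 nuclei of class 1. Its fetal levels of 0.0963 to 0.238 in classes 4, 5, 9 and 12 were below both adult progenitor-like classes. Csn1s2b was at 0.666 and 0.683 in adult classes 3 and 7 and at 0.136 to 0.402 in classes 1, 2, 8 and 11, and its fetal classes 4, 5, 9 and 12 spanned 0.420 to 0.565. The receptor genes summed gave 0.0579 to 0.169 over the adult classes 1, 2, 3, 7, 8 and 11.

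Summed over its span, Wap had similar levels in the adult luminal classes, although some regions of the span differed. It was at 0.774 and 0.637 in classes 3 and 7 and at 0.490 and 0.584 in the mature luminal-like classes 2 and 11, with overlapping intervals. The promoter region chr11:6638722-6639721 held 27 reads in classes 3 and 7 (2.75 RPM) and 6 in classes 2 and 11 (0.431 RPM). In the other direction, chr11:6633419-6634418, 1065 bases from the gene, held no read in classes 3 and 7 and 22 in classes 2 and 11 (1.58 RPM). Adult replicate 2 had 20 adult reads there against 4 in adult replicate 1. Inside the gene, chr11:6635766-6636765 was closer between the classes, with 9 reads in classes 3 and 7 (0.915 RPM) and 18 in classes 2 and 11 (1.29 RPM). In the basal-like classes 1 and 8 Wap was at 0.0965 and 0.102 over its span, from 2 reads each. Fetal class 9 had 0.382, class 4 had 0.137 from 4 reads, and class 12 had no read in 339 nuclei. Csn2 had at most 0.277 in any class, from 3 reads in adult class 6, and its 23 reads in adult classes 3 and 7 gave 0.216 against a receptor level of 0.0893 in the same nuclei.

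**Figure D2:**
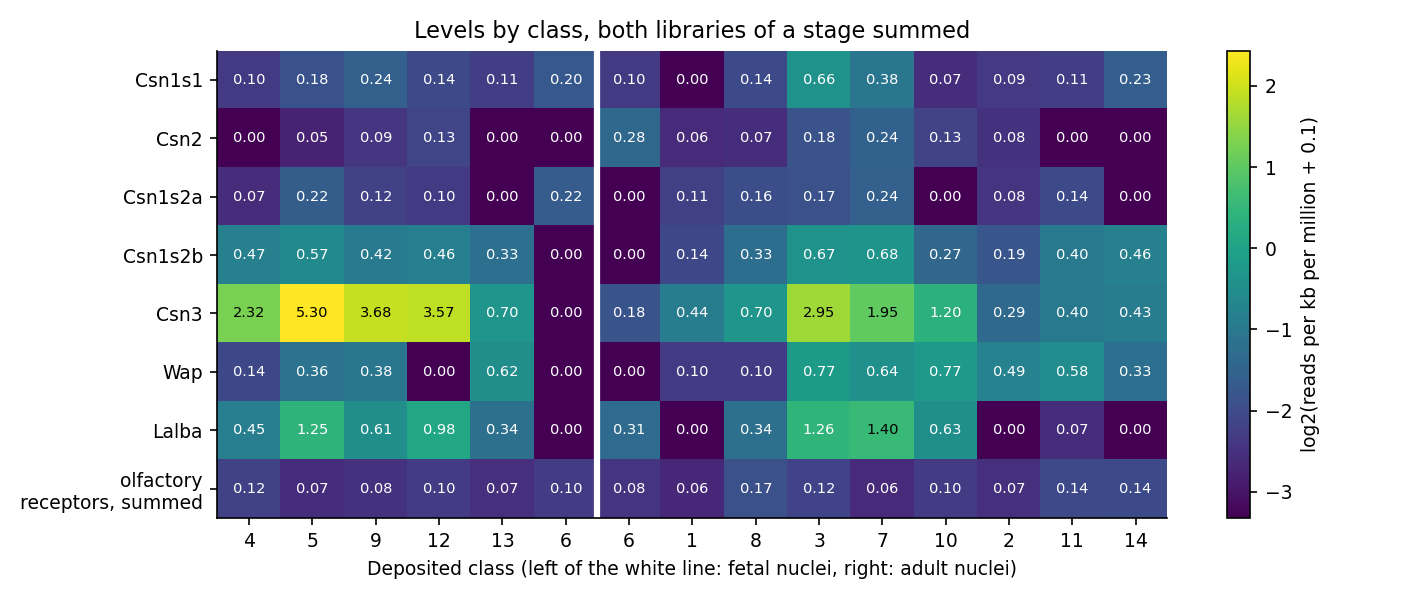
Level of each gene (rows) in each deposited class (columns), in RPKM as printed in the cells, both libraries of a stage summed, with colour on a log2 scale after adding 0.1. The bottom row sums all olfactory receptor genes. Csn3 is high in fetal classes 4, 5, 9 and 12 and adult classes 3 and 7, Lalba is at 0 in adult class 2, and Wap summed over its span is at 0.490 to 0.774 in adult classes 2, 3, 7 and 11.

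To hold the kind of nucleus closer to constant, the stages were compared over classes 3, 5, 7 and 9 alone, a set chosen with earlier results of these data known. Fetal nuclei there were in classes 5 and 9 and adult nuclei in classes 3 and 7, apart from 8 and 19 strays in classes 3 and 9 and 1 in class 7. Csn1s1 held 16 and 44 fetal and 59 and 41 adult reads, levels of 0.198 and 0.228 against 0.612 and 0.384, so the adult values were higher without overlap. Csn3 held 136 and 475 fetal and 98 and 164 adult reads, levels of 3.12 and 4.57 against 1.89 and 2.85. Lalba was at 0.617 and 0.872 against 1.29 and 1.40, Wap at 0.351 and 0.412 against 0.618 and 0.745, and Csn1s2b at 0.434 and 0.473 against 0.739 and 0.602. For Csn1s2a the stages overlapped, at 0.137 and 0.155 in fetal against 0.311 and 0.114 in adult libraries. Csn2 had too few reads to be tested (2, 9, 11 and 12).

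Of the 6 genes tested in these classes, 2 were called, against 19.9% of 17649 genes. Csn1s1 was higher in adult nuclei (log2 fold change -1.23, SE 0.41, adjusted p = 0.0324, edgeR), and Csn3 was higher in fetal nuclei (0.68, SE 0.21, adjusted p = 0.0214). Neither call was firm: both were lost with DESeq2, without adult replicate 1, without fetal replicate 2 and without fetal class 5, and that of Csn1s1 also without fetal replicate 1. Csn3 then had adjusted p-values of 0.115, 0.156, 0.530 and 0.151, and Csn1s1 0.0974, 0.249, 0.159, 0.0793 and 0.184, with no change of direction. The fold change of Csn3 ranged from 0.33 without fetal replicate 2 and 0.42 without adult replicate 1 to 1.04 without adult replicate 2. For the only region listed inside Csn1s1, chr5:87671328-87672327, the difference stood at 0.11 (SE 0.52, adjusted p = 0.902, edgeR) in these classes. Over all nuclei it held 16 and 33 fetal against 16 and 21 adult reads (1.07, SE 0.52, adjusted p = 0.108, edgeR). Lalba had a log2 fold change of -0.85 (SE 0.40, adjusted p = 0.147), Wap -0.85 (SE 0.54, adjusted p = 0.293), Csn1s2b -0.59 (SE 0.30, adjusted p = 0.175) and Csn1s2a -0.54 (SE 0.60, adjusted p = 0.585), all by edgeR and none called. The median over the 6 tested members was -0.72, beside 0.0016 over all genes.

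Among other genes of lactation, a list of 28, most calls in these classes were higher in adult nuclei. Of 27 tested, 16 were called higher in adult, against 10.3% of all genes tested, 2 higher in fetal and 9 not called, with a median log2 fold change of -0.49 beside 0.0016 over all genes. Whether the list differs from other genes was not tested. Fetal class 5, left without a name above, held 201 of the 589 fetal replicate 1 nuclei and 337 of the 995 fetal replicate 2 nuclei compared here. Over all nuclei 13 of 27 were called, against 22.2% of all genes, and 9 of them were higher in adult, against 10.9%, with a median of -0.25 beside 0.01 over all genes. Fewer genes were called in these classes without fetal replicate 1 and over all nuclei without fetal replicate 2. In both cases calls fell on the list and over all genes alike. The iron carrier Trf (-2.20, SE 0.16), the mucin Muc1 (-1.83, SE 0.15), lactoferrin (Ltf, -1.83, SE 0.42) and osteopontin (Spp1, -2.11, SE 0.37) had large differences among secreted products. The counted span of Muc1 overlaps those of Thbs3 and Trim46, and that of Fasn, named below, overlaps Ccdc57. Reads there may be shared with those neighbours. Among milk fat genes, adult levels were higher for the lipid droplet protein Plin2 (-1.75, SE 0.24), butyrophilin (Btn1a1, -0.78, SE 0.19), xanthine dehydrogenase (Xdh, -0.55, SE 0.14) and Fasn (-0.41, SE 0.14), the last of which lost its call under 7 alternatives.

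Along the hormone axis, the prolactin receptor Prlr, which is also on the mature luminal marker list, was higher in adult nuclei by a log2 difference of -1.15 (SE 0.15). Stat5b (-0.49, SE 0.14) and its target Cish (-0.52, SE 0.16) were called in the same direction, while Stat5a (-0.29, SE 0.15, adjusted p = 0.187, edgeR), Jak2 and Socs2 were not. The counted spans of Stat5a and Stat5b overlap, so these genes share reads. That of Stat5a also overlaps Stat3, and that of Elf5, named below, overlaps Cat. Both genes of lactose synthesis on the list were higher in adult nuclei: B4galt1, the partner of alpha-lactalbumin (-0.49, SE 0.12), and the glucose transporter Slc2a1 (-0.55, SE 0.11). Of the transcription factors, Ehf was higher in adult (-0.53, SE 0.11), Nfib was higher in fetal nuclei (0.51, SE 0.09), and Elf5 (-0.34, SE 0.14, adjusted p = 0.0996) and Gata3 were not called. Nfib stood at -0.0084 when nuclei with a read were counted in place of reads. Pthlh, which encodes a hormone of mammary bud formation, was the other gene higher in fetal nuclei (1.31, SE 0.18).

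**Figure D3:**
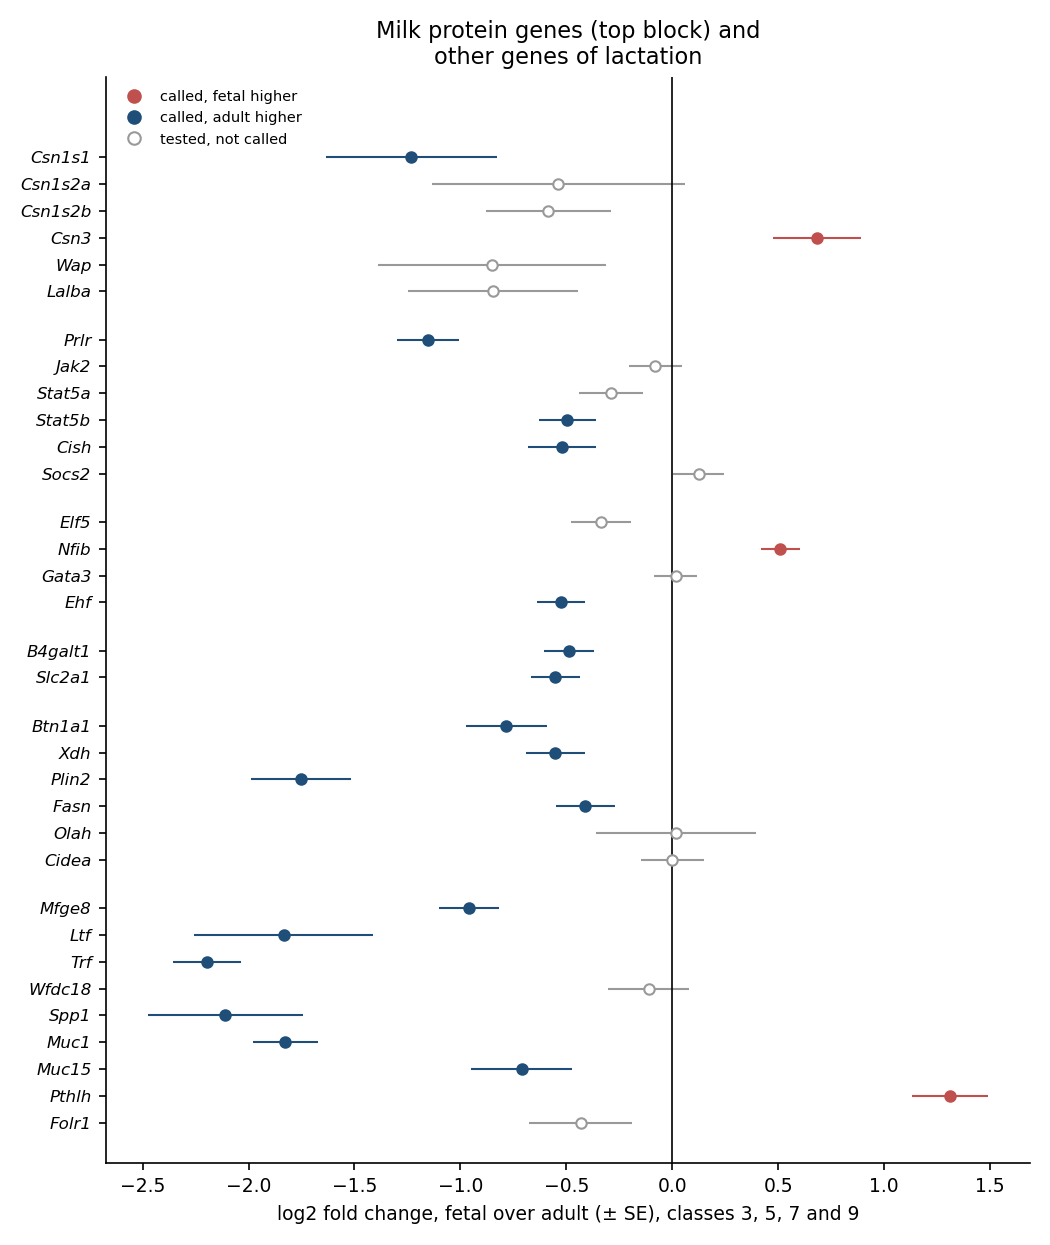
Log2 fold change, fetal over adult, with its SE for the milk protein genes (top block) and the other genes of lactation in classes 3, 5, 7 and 9, edgeR fits on 4 library sums. Filled points passed an adjusted p of 0.05. Most filled points lie left of 0, where adult nuclei were higher, and Csn3, Nfib and Pthlh lie to the right.

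Across the casein locus the stages differed by position. The window ran from 50 kb before Csn1s1 to 50 kb after Csn3 on chromosome 5 and held 22 of the authors' distal regions, each 1000 bases wide. Of 18 tested, 10 were called, of which 8 had the higher value at the fetal stage and 2 at the adult stage, against 35.3% of all 122865 distal regions called and 16.6% called higher in fetal nuclei. All 8 regions higher in fetal nuclei lay between 139 and 277.3 kb from the start of Csn1s1, in the part that holds Csn1s2b and Csn3. Both regions higher in adult nuclei lay in the other part, at -48.1 kb and 68.5 kb. Some called regions passed the filter of 10 reads on average mainly through the stage where they were higher, which favours that direction. Among them, chr5:87935862-87936861 held 0 and 39 fetal and 4 and 2 adult reads. Likewise, chr5:87804661-87805660 held 10 and 24 fetal and 2 and 8 adult reads. The region at 68.5 kb held 2 and 4 fetal and 18 and 46 adult reads. The same holds for chr5:87943019-87944018, described next. It also holds for chr5:87930570-87931569, with 14 and 42 fetal against 7 and 11 adult reads. A further case is chr5:87917297-87918296, with 12 and 21 fetal against 9 and 3 adult reads. Called regions fell to 6 with DESeq2 (5 higher in fetal), where 24872 of all 122865 distal regions were called. Fewer were also called without fetal replicate 2, at this locus and over all distal regions.

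The sharpest difference was at chr5:87943019-87944018, 10469 bases beyond Csn3 and outside any gene. It held 25 and 56 fetal reads and 2 and 2 adult reads, a log2 fold change of 4.89 (SE 0.67). The region thus passed the read filter through its fetal reads, which favours a call in that direction. Its values in RPM were 9.44 in fetal class 5 and 8.19 in class 12, against 1.26 in class 9, 2.21 in class 4 and 0.203 in adult classes 3 and 7. In classes 3, 5, 7 and 9 it was called at 4.07 (SE 0.95, adjusted p = 0.0043, edgeR), and without class 5 or without fetal replicate 2 it had too few reads to be tested.

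Closer to Csn3, chr5:87932669-87933668, 119 bases past the gene's end, held 27 and 126 fetal against 18 and 24 adult reads (2.36, SE 0.39). The 126 reads of fetal replicate 2 exceeded those of every other library, and the region had 3.76 RPM in adult classes 3 and 7 but 0 and 1 read in adult classes 1 and 8 and in 2 and 11. In classes 3, 5, 7 and 9 its difference was 1.09 (SE 0.40, adjusted p = 0.0530, edgeR) and was not called. Between Csn1s2b and Csn3, chr5:87869710-87870709 held 69 and 163 fetal against 39 and 57 adult reads (1.92, SE 0.29), and it was also called in classes 3, 5, 7 and 9 (1.56, SE 0.33, adjusted p = 0.0021). Its neighbour chr5:87876545-87877544 held 11 and 91 fetal against 12 and 13 adult reads (2.43, SE 0.50). In CPM, scaled to the reads in tested regions with TMM factors, these were 4.71 and 14.7 in fetal against 2.19 and 1.70 in adult libraries, so both fetal libraries were higher, fetal replicate 2 by far the most. Without fetal replicate 2 the call was lost (1.32, adjusted p = 0.238, edgeR), and in classes 3, 5, 7 and 9 it was not called (0.83, SE 0.64, adjusted p = 0.369).

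Inside Csn1s2b, chr5:87819739-87820738 had the most reads of any distal region of the locus and was not called between the stages. It held 42, 129, 101 and 84 reads (0.43, SE 0.29, adjusted p = 0.247, edgeR). Its 11.5 RPM in adult classes 3 and 7 stood beside 2.85 in classes 1 and 8 and 3.02 in classes 2 and 11, and the fetal classes 4, 5, 9 and 12 spanned 7.58 to 9.69. Before Csn1s1, chr5:87617632-87618631 held 8 and 12 fetal against 85 and 95 adult reads (-2.50, SE 0.44) and was highest in the mature luminal-like classes, at 8.40 RPM against 3.86 in classes 3 and 7. It was 26021 bases from Sult1e1, the nearest gene. Its difference in classes 3, 5, 7 and 9 (-2.21, SE 0.72, adjusted p = 0.0312, edgeR) was not called with DESeq2, without fetal replicate 2 or without fetal class 5 (adjusted p = 0.0687, 0.327 and 0.109).

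**Figure D4:**
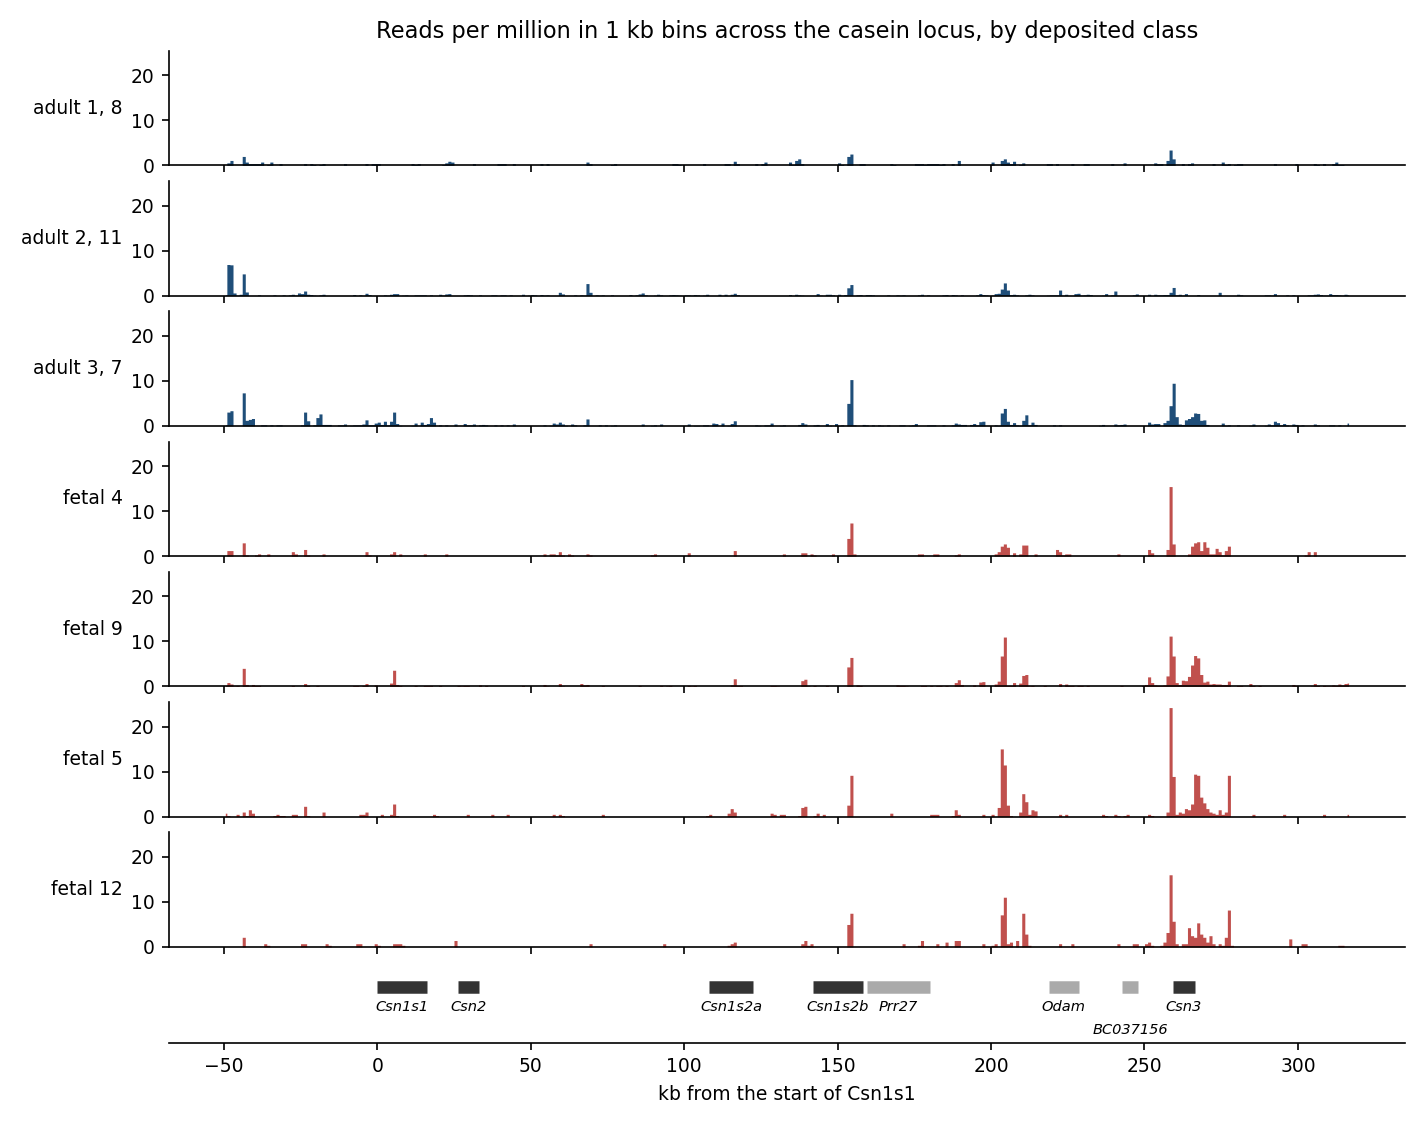
RPM in 1 kb bins along the casein locus for groups of deposited classes (rows, fetal in red and adult in blue, all on 1 scale), by kb from the start of Csn1s1. Dark bars are casein genes and grey bars other genes. The highest bin of each fetal row lies at the start of Csn3, and fetal classes 5, 9 and 12 have a further high peak between Csn1s2b and Csn3. Adult classes 2 and 11 are highest before Csn1s1, adult classes 3 and 7 are high there, at Csn1s2b and at Csn3, Csn2 has few reads in any row, and the peak 277.3 kb from Csn1s1 is seen in fetal classes 5 and 12.

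In classes 3, 5, 7 and 9, 4 of 10 tested casein-locus regions were called, 2 in each direction, against 25.0% of 60254 regions. Besides those above, chr5:87622267-87623266, at -43.4 kb from the start of Csn1s1, was called higher in adult nuclei there (-1.27, SE 0.45, adjusted p = 0.0431, edgeR). It lost the call with DESeq2 (0.103), without fetal replicate 1 (0.145), fetal replicate 2 (0.0660) or adult replicate 2 (0.330), and without class 5 (0.193). Of the authors' promoter regions, 4 lay within 2000 bases of a member, and 1 of these 4 was called, against 21.5% of 18570. That was the Csn3 promoter region chr5:87924536-87925535, with 79 and 292 fetal against 58 and 109 adult reads (1.69, SE 0.22). Its values in RPM were 29.8 in fetal class 5, 17.4 in class 12, 15.4 in class 4, 14.7 in class 9 and 10.4 in adult classes 3 and 7, against 3.21 in classes 1 and 8 and 2.15 in classes 2 and 11. The Wap promoter region held 5, 28, 23 and 14 reads (0.28, SE 0.61), and the 2 at Lalba held 10, 42, 26 and 23 reads (0.58, SE 0.50) and 5, 31, 10 and 8 reads (1.43, SE 0.70), all without a call.

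Around Wap and Lalba few distal regions were tested, so the shares called are not read as different from that of all distal regions (35.3%). The difference from the casein locus was not tested. Within 50 kb of Wap, 2 of 10 tested distal regions were called, both higher in fetal nuclei. The clearer of these, chr11:6679808-6680807, 2330 bases from the receptor-modifying gene Ramp3, held 28 and 96 fetal against 26 and 46 adult reads (1.36, SE 0.36). Among the groups of classes examined its highest value was in stromal-like class 6, at 17.99 RPM in adult and 12.1 in fetal nuclei, and its call was lost with DESeq2 (adjusted p = 0.0507) and without adult replicate 1 (0.0502). In classes 3, 5, 7 and 9 it was called at 2.15 (SE 0.73, adjusted p = 0.0363, edgeR), a call also lost under both (0.531 and 0.202). The distal region with the most reads near Wap, chr11:6598357-6599356 inside Nacad, was highest in basal-like classes 1 and 8 (12.1 against 4.27 in classes 3 and 7) and was not called (-0.59, SE 0.34).

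Within 50 kb of Lalba, 2 of 9 tested regions were called, 1 in each direction. In chr15:98507437-98508436 the reads were 0 and 18 in fetal and 26 and 64 in adult libraries (-1.79, SE 0.60), and in chr15:98491318-98492317 they were 9 and 52 against 15 and 16 (1.43, SE 0.53). Both calls were lost with DESeq2 (adjusted p = 0.452 and 0.233) and without adult replicate 2 (0.192 and 0.214). The first was also lost without fetal replicate 1 (0.0880), and the second without fetal replicate 2 (0.545) and without adult replicate 1 (0.0890). Neither was called in classes 3, 5, 7 and 9 (-2.17, SE 0.82, adjusted p = 0.0593, and 0.98, SE 0.81, adjusted p = 0.410, edgeR). In CPM, scaled in the same way, the second had 3.85 and 8.40 in fetal against 2.74 and 2.10 in adult libraries, without overlap. The most read region, chr15:98512302-98513301, held 110, 277, 221 and 222 reads (0.41, SE 0.21, adjusted p = 0.129, edgeR) and had 22.5 RPM in adult classes 3 and 7, 21.7 in classes 1 and 8 and 4.24 in classes 2 and 11. Nearby, chr15:98505897-98506896 held 68, 156, 128 and 150 reads and was called only in classes 3, 5, 7 and 9, higher in adult nuclei (-0.72, SE 0.23, adjusted p = 0.0292, edgeR). That call was lost with DESeq2 (0.0777), without either fetal replicate (0.0666 and 0.261) and without adult replicate 1 (0.0738). Its RPM was 20.6 in adult classes 3 and 7, 8.56 in classes 1 and 8 and 0.503 in classes 2 and 11. Mature luminal-like nuclei were thus low in both regions and over Lalba itself, while basal-like nuclei were low over the gene but not in the most read region.

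**Figure D5:**
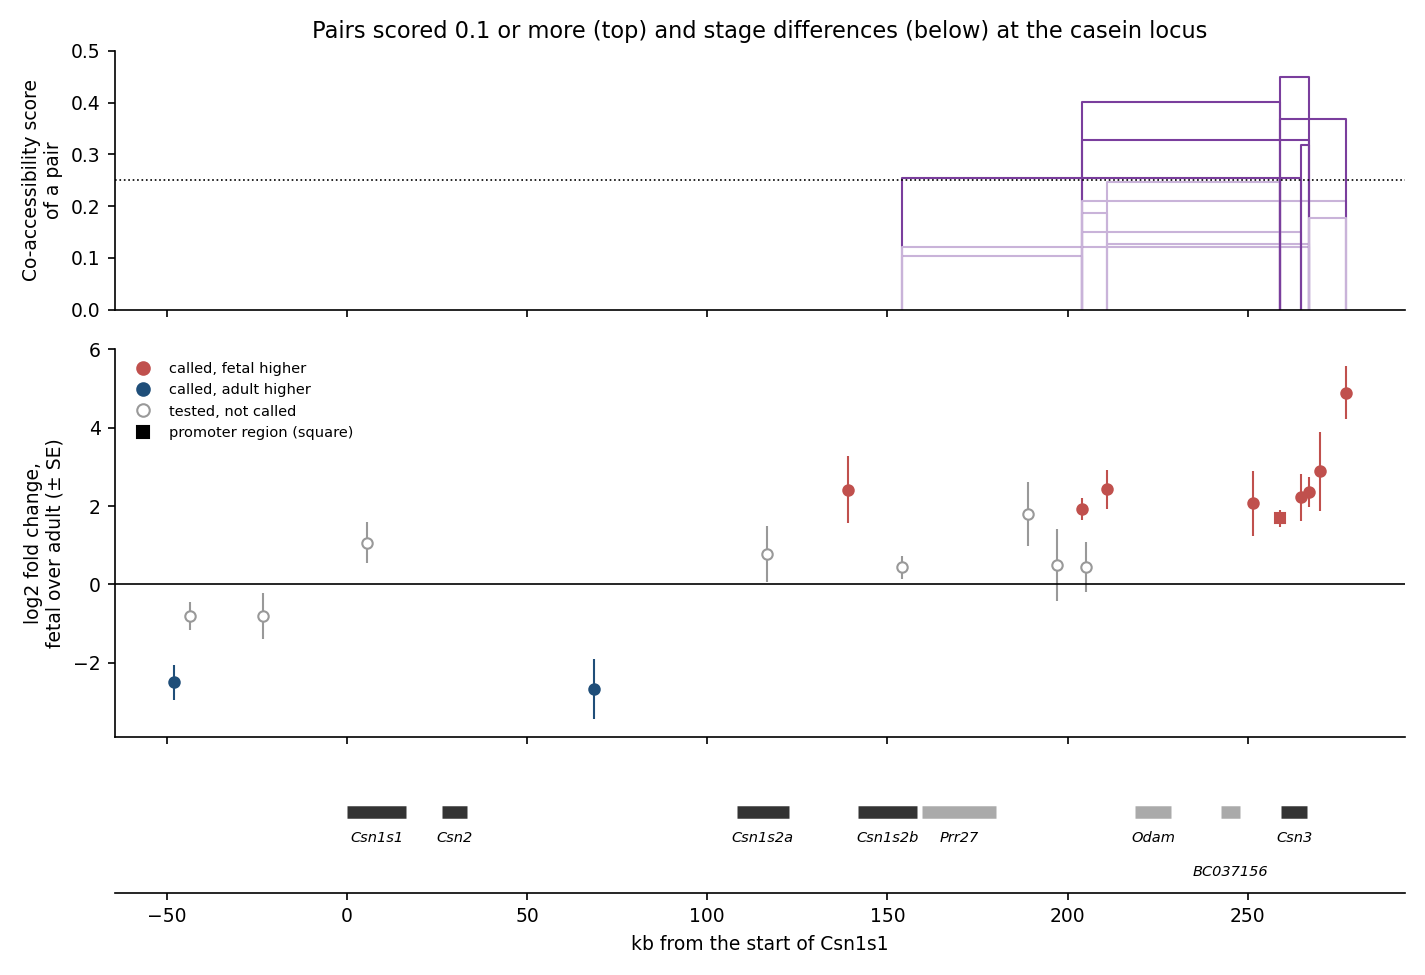
Casein locus by kb from the start of Csn1s1. Top, deposited co-accessibility scores of region pairs at 0.1 or more, with brackets joining the 2 regions at the height of the score and a dotted line at 0.25. Below, log2 fold change, fetal over adult, with its SE for each tested region over all nuclei. Regions called higher in fetal nuclei run from just before Csn1s2b to beyond Csn3, and pairs above the line from inside Csn1s2b to beyond Csn3. The scores pool nuclei of both stages, so the top and lower panels are not independent.

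The authors' Cicero table scores pairs of regions up to about 500 kb apart for co-accessibility, a regularised correlation over groups of similar nuclei that is penalised by distance. It pools all nuclei and names no class or library, so pairs could not be given by class. Regions that differ alike between the stages can score together in such a pool. The scores are thus not independent of the stage differences above. A score of 0.25 or more was reached by 32718 of 6359756 pairs, or 0.514%, and by 1.10% of pairs under 50 kb apart. Inside the casein window 7 of 253 pairs reached it, or 2.77%, with none of 148 around Wap and 1 of 91 around Lalba. All 7 joined regions between Csn1s2b and the far side of Csn3, and 5 of them included the Csn3 promoter region. The highest score, 0.450, joined that promoter to the region 119 bases past Csn3, 8.13 kb away. Scores of 0.401 and 0.367 joined it to chr5:87869710-87870709, 54.8 kb before it, and to chr5:87943019-87944018, 18.5 kb after it. The region inside Csn1s2b had a score of 0.254 with the Csn3 promoter, over 105 kb.

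No pair of a region at Csn1s1, Csn1s2a, Wap or Lalba reached 0.25, out of 29, 30, 231 and 183 pairs. With a share of 0.514% over all pairs, this is not read as a result about these genes. The highest scores were 0.0927 for Csn1s1, 0 for Csn1s2a, 0.0425 for Wap and 0.208 for Lalba, the last to chr15:98505897-98506896, 23.6 kb from its promoter. Csn2 had no listed region within 2000 bases. At a score of 0.1 or more were 16 of 87 pairs that touched Csn3, 5 of 30 at Csn1s2b and 2 of 183 at Lalba. Over all pairs, 166957 of 6359756 reached that score.

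Over the 14 classes, the genes whose profile was most like that of Csn3 were Barx2 (r = 0.937), Tex33 (0.925) and Atp6v1b1 (0.924), among 12332 genes with at least 1000 reads. For Lalba they were Atp6v1b1 (0.945), Rassf4 (0.923) and Ncald (0.922), and Csn3 and Lalba were alike at r = 0.857. Csn1s1 was closest to Ccl28 (0.862), Clnk (0.851) and Gad1 (0.787), and Csn1s2b to Gm7244 (0.884), Fgd1 (0.875) and Zfp750 (0.870). These are Pearson correlations of log2(CPM + 2) over 14 classes that share 4 libraries and differ in depth, given as a description. The counted spans of Csn1s2b and its neighbour Prr27 overlap, so they share reads. Other genes between the caseins had low levels: means of Prr27, Odam and BC037156 were 0.0698, 0.143 and 0.0690 in fetal and 0.0740, 0.112 and 0.0998 in adult libraries.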

How the data were processed

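Reads of single-nucleus ATAC-seq libraries were deposited as positions with a barcode, and the authors kept the nuclei analysed here and gave each a class from 1 to 14. The submitters' processing notes name Bowtie2, MACS2, bedtools and mm10, without versions or roles. The deposited count of reads per nucleus equalled the reads counted here for every listed nucleus. The deposited co-accessibility score (Cicero) was used as given.

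Reads overlapping each gene span plus 2000 bases, and each deposited region, were summed per library. Features averaging 10 or more reads over the libraries were tested between stages with edgeR 4.0.16 (R 4.3.3), using TMM scaling, the quasi-likelihood test, 2 libraries per stage and Benjamini-Hochberg adjustment over all features, with a threshold of 0.05. DESeq2 1.42.0 was an alternative. Only the edgeR fit of gene spans over all nuclei was tried on simulated data, with a fixed dispersion. The other fits were not. The SE is the fold change divided by the square root of F. A marker was raised in a class when its log2(CPM + 2) exceeded the mean of the remaining classes by 0.5 or more. Fold changes are fetal over adult, and p-values measure the spread between these libraries. No doublet caller was run, and 20 nuclei were sorted per well, so 1 barcode can hold several nuclei.

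The members and lists were chosen with earlier results of these data known, and the olfactory receptor reference was added after the values were seen. Distal regions named are those with the most reads in a locus and up to 8 called over all nuclei, averaging 20 reads or more. After the values were seen, 2 regions called only in classes 3, 5, 7 and 9 and those at Csn1s1 and Wap were added, and the 3 most alike genes are named per member with at least 200 reads. Promoter sequences come from RefSeq (GRCm38.p6).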

Additional observations from a re-analysis of the deposited data

How the results depend on the processing

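Of 661 alternative values with a test, 580 kept direction and side of the threshold, 61 lost a call, 11 gained one and 9 changed sign. In classes 3, 5, 7 and 9 the 2 called milk protein genes fell to 0 with DESeq2, to 1 at a mean of 50 reads per library and to 0 without fetal class 5, and ranged from 0 to 2 with 1 library left out. With 1 library left out, the 28 other genes gave 10 to 16 calls there and 8 to 16 over all nuclei. Called distal regions of the 3 loci (14) fell to 6 with DESeq2, 3 at a mean of 50 reads and 9 with nuclei counted in place of reads (9 to 11 with 1 library left out), and those of the casein locus (10) to 6, 2 and 5 (5 to 9). In classes 3, 5, 7 and 9 the distal regions (6) fell to 2, 2 and, without class 5, 3 (3 to 5), and those of the casein locus (4) to 2, 1 and 1 (1 to 4). Higher filters test fewer regions, and other causes were not tested. Over all distal regions, 24872 of 122865 were called with DESeq2, against 43423 in the main fit. At a mean of 50 reads 15301 of 28608 were called, and 34790 of 73004 with nuclei counted. In classes 3, 5, 7 and 9, 10536 of 60254 were called with DESeq2, against 15048 in the main fit. There, 3984 of 10098 were called at a mean of 50 reads and 11027 of 51125 without class 5. Pairs within the loci numbered 18 at a score of 0.1 and 0 at 0.5, against 8 at 0.25. With 1 library left out, these uncalled log2 fold changes crossed 0: Csn1s2a ranged from -0.352 to 0.093 (without adult replicate 1) and in classes 3, 5, 7 and 9 from -1.08 to 0.317, Csn1s2b from -0.152 (without fetal replicate 2) to 0.367, Lalba from -0.172 (without fetal replicate 2) to 0.728, the Wap promoter region from -0.546 to 0.873 (also -0.187 without adult replicate 2), and chr5:87819739-87820738 from -0.021 to 0.752. Csn1s2a was 0.145 without flanks and Nfib -0.0084 with nuclei counted; the cause was not tested. Over all features, calls of genes (4174) were 2507 and 1812 without fetal replicates 1 and 2, and those in classes 3, 5, 7 and 9 (3518) were 1967 with DESeq2, 1636 and 1149. With the replicate number as a block, 6421 genes were called, against 4174 without it, and 1 of 7 milk protein genes was among them. The labels name no litter or day that same-numbered libraries share. The block ended the call of chr15:98491318-98492317 (adjusted p = 0.0654, edgeR).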
